A study of Glycine max with 6 samples.

Results

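GmSGR1 (Glyma11g02980), GmSGR2 (Glyma01g42390) and GmSARK (Glyma13g34100) are 3 soybean genes with a known link to leaf senescence. They were found by these gene identifiers among the 66184 probe sets of the Affymetrix Soybean Gene 1.0 ST array, on which each has 1 probe set. The array compared leaves of well-watered and drought-stressed plants of the soybean (Glycine max) cultivar Williams 82, grown 3 to a pot. Drought-stressed plants went without water for 5 days once flowering began, whereas the control group was watered as usual. The third trifoliate leaf below the growing shoot was taken in full bloom (R2 stage), and according to the study's methods leaves with similar chlorophyll indexes were picked in both groups. Each group held 3 arrays, of plants 1, 3 and 4 for the well-watered group and of plants 11, 12 and 13 for the drought group. The sources speak of a drought pot and a control pot without saying which plants shared one, so that pot and treatment cannot be told apart here, and the spread behind each p-value may be that within a single pot.

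Stay-green (SGR) proteins act in chloroplasts, where they remove the magnesium from chlorophyll a and so open its breakdown, the step by which a senescing leaf turns yellow. Plants that lack them, such as the green-cotyledon pea of Mendel, keep their chlorophyll while the leaf ages. SARK is a receptor-like kinase with leucine-rich repeats in its outer part, and in soybean raising or lowering its expression is known to speed or delay leaf senescence. GmSGR1 is listed in RefSeq (assembly Glycine_max_v4.0) as SGR1 with the synonym D2, one of a pair of soybean loci whose joint loss keeps leaves and seeds green. RefSeq lists GmSGR2 as SGR2 and GmSARK as SARK. Each of the 3 symbols was found once there, and on the chromosome that the array's identifier gives, which is 11 for GmSGR1, 1 for GmSGR2 and 13 for GmSARK.

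Expression is given on the log2 scale, relative to the probe set's own median over the 6 arrays. A value of 0 is therefore the middle of the 6 arrays, differences between arrays are kept, and levels cannot be compared between genes. For the same reason the middle pair of the 6 ordered values of any gene mirror each other around 0. Array medians over all probe sets lay between -0.11 (well-watered plant 1) and 0.13 (well-watered plant 3). The labelled tissue could not be checked against leaf genes, since centred values do not show whether they are expressed. A gene was called when its p from limma, adjusted by the Benjamini-Hochberg method over all probe sets, was under 0.05 and its change was at least 2-fold. By these criteria 3295 probe sets (4.98%) were called higher and 3065 (4.63%) lower in drought-stressed leaves.

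Both stay-green genes were called higher in drought-stressed leaves, GmSGR2 by 7.04-fold and GmSGR1 by 2.10-fold, whereas GmSARK was not called. Against the 2 of 3 genes called higher stands the 4.98% of all probe sets given above. The expression of the stay-green genes did not overlap between the groups, which held with drought higher for 18.6% of all probe sets. In GmSARK the groups overlapped. In whole leaves a change in the share of cells that express a gene and a change of its RNA per cell cannot be told apart. The study picked these genes, known to be induced in senescence, to check its array measurements.

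GmSGR2 had the larger change. Its log2 values were -1.11, -1.85 and -1.52 in well-watered plants 1, 3 and 4, and 1.11, 1.46 and 1.41 in drought-stressed plants 11, 12 and 13. All drought values lay above 1 and all well-watered values below -1, and the lowest drought array was 2.22 above the highest well-watered array. Group means were -1.49 ± 0.37 (SD, n = 3) in well-watered and 1.32 ± 0.19 (SD, n = 3) in drought-stressed leaves. The log2 fold change was 2.81 ± 0.21 (SE of the limma fit), with an adjusted p of 1.98e-05. Only 304 of the 66184 probe sets (0.459%) had a larger rise, and 309 (0.467%) a wider gap between the groups.

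GmSGR1, the other stay-green gene, had a smaller measured change, which lay close to the 2-fold criterion. Its log2 values were -0.23, -0.73 and -0.81 in well-watered plants 1, 3 and 4, and 0.23, 0.69 and 0.52 in drought-stressed plants 11, 12 and 13. Each drought array was above each well-watered array, but well-watered plant 1 and drought-stressed plant 11 stood only 0.46 apart. Group means were -0.59 ± 0.32 (SD, n = 3) and 0.48 ± 0.23 (SD, n = 3). The log2 fold change was 1.07 ± 0.21 (SE of the limma fit), with an adjusted p of 0.00485. A larger rise was measured for 3008 probe sets (4.54%). Without well-watered plant 4 the change was 0.96 (adjusted p = 0.0249) and without drought-stressed plant 12 it was 0.96 (adjusted p = 0.0267), so that in both cases GmSGR1 passed the adjusted p and missed the 2-fold criterion. In the methods' own test, with a spread estimated from this gene alone, its adjusted p was 0.0626.

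GmSARK, the receptor-like kinase, was not called. Its log2 values were 0.23, -0.92 and -0.73 in well-watered plants 1, 3 and 4, and 0.43, -0.16 and 0.16 in drought-stressed plants 11, 12 and 13. Well-watered plant 1 lay above drought-stressed plants 12 and 13, and the other 2 well-watered plants lay below all 3 drought-stressed ones. Group means were -0.47 ± 0.62 (SD, n = 3) and 0.14 ± 0.30 (SD, n = 3). The log2 fold change of 0.61 ± 0.29 (SE of the limma fit), or 1.53-fold, had an adjusted p of 0.188. With no fold criterion 9.96% of all probe sets passed the adjusted p with drought higher, and GmSARK was not among them.

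**Figure D1:**
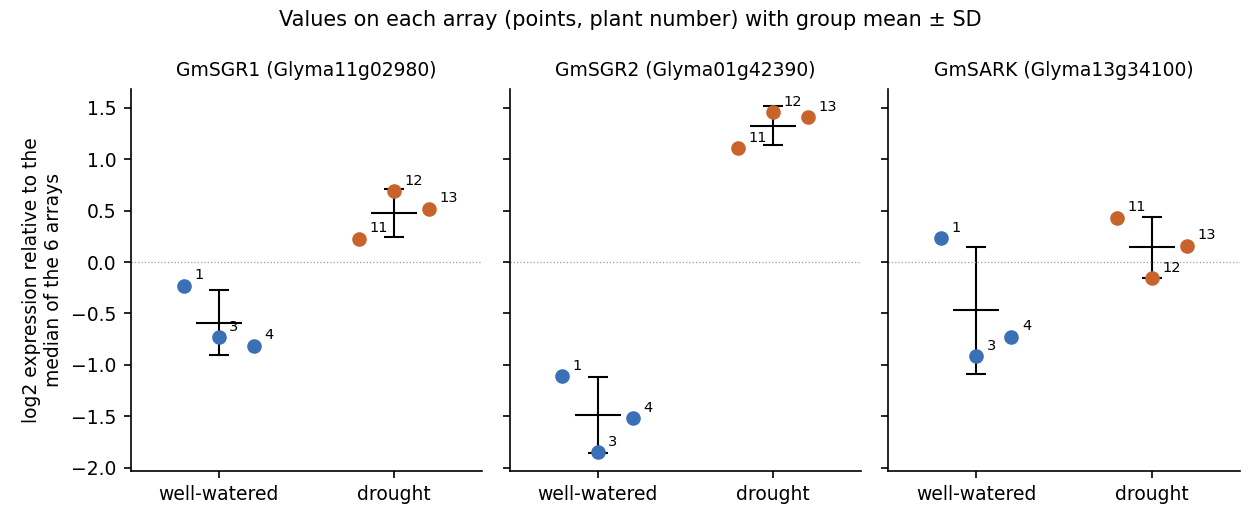
Log2 expression relative to the median of the 6 arrays (vertical axis) of GmSGR1, GmSGR2 and GmSARK in well-watered (blue) and drought-stressed (orange) leaves, with 1 point per array labelled with the plant number and the group mean ± SD in black. The groups are 2.22 apart in GmSGR2 and 0.46 apart in GmSGR1, and in GmSARK well-watered plant 1 lies among the drought-stressed plants.

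With 3 arrays against 3 the exact two-sided permutation test cannot go below p = 0.1. The exact permutation p was at this smallest value of 0.1 for GmSGR1 and GmSGR2, and at 0.3 for GmSARK. Within-group spread also separated the genes. The pooled within-group SD was 0.28 for GmSGR1 and 0.29 for GmSGR2, close to the median of 0.24 over all probe sets. For GmSARK it was 0.48, and 95.3% of probe sets had a smaller one. Its 3 well-watered values spanned 1.15 on the log2 scale, about the size of the whole drought change of GmSGR1.

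**Figure D2:**
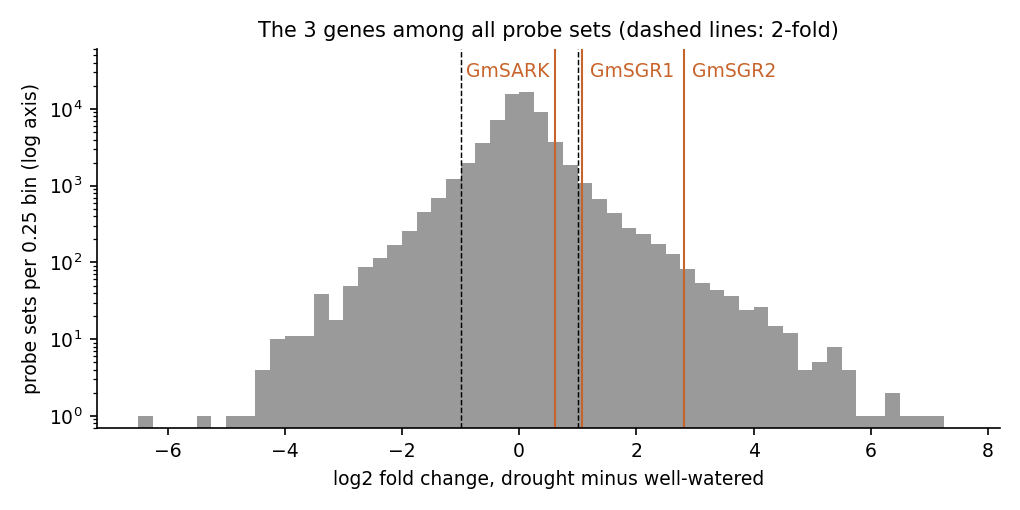
Number of probe sets (vertical log axis) per bin of log2 fold change, drought minus well-watered (horizontal axis), for all 66184 probe sets, with the 3 genes as orange lines and 2-fold changes as dashed lines. GmSGR2 at 2.81 lies in the upper tail, GmSGR1 at 1.07 just past the 2-fold line and GmSARK at 0.61 inside it.

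The value of GmSARK moved with most single arrays, and most when well-watered plant 1 or 3 was left out. Leaving out well-watered plant 1 gave a log2 fold change of 0.97 ± 0.21 (SE of the limma fit) with an adjusted p of 0.0112, past the adjusted p but still under 2-fold. In that fit 8.98% of all probe sets passed the adjusted p with drought higher. Without well-watered plant 3 the change was 0.39 with an adjusted p of 0.399. It was 0.49 without well-watered plant 4 (adjusted p = 0.409) and 0.47 without drought-stressed plant 11 (adjusted p = 0.437). Leaving out drought-stressed plant 12 gave 0.77 (adjusted p = 0.178). Weighting the arrays by their agreement with the fit gave a change of 0.77 with an adjusted p of 0.0179, and 16.2% of all probe sets then passed the adjusted p with drought higher. The weighted well-watered side rests mainly on plant 4, with a weight of 3.96 against 0.48 for plant 1 and 0.34 for plant 3. In GmSARK well-watered plant 1 stood 0.96 above the higher of the other 2 well-watered plants. A margin at least as wide was found for this array in 360 probe sets (0.544%), for plant 3 in 428 (0.647%) and for plant 4 in 88 (0.133%).

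Well-watered plant 1 was the highest well-watered array in all 3 genes. Among drought-stressed plants the order differed, since plant 12 was highest and plant 11 lowest in both stay-green genes, while plant 11 was highest and plant 12 lowest in GmSARK. GmSGR2 kept its call when any 1 array was left out, with log2 fold changes between 2.64 and 3.01. GmSGR1 ranged from 0.96 to 1.25 and GmSARK from 0.39 to 0.97. Without well-watered plant 3, GmSGR1 was at 1.00 and just kept its call.

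**Figure D3:**
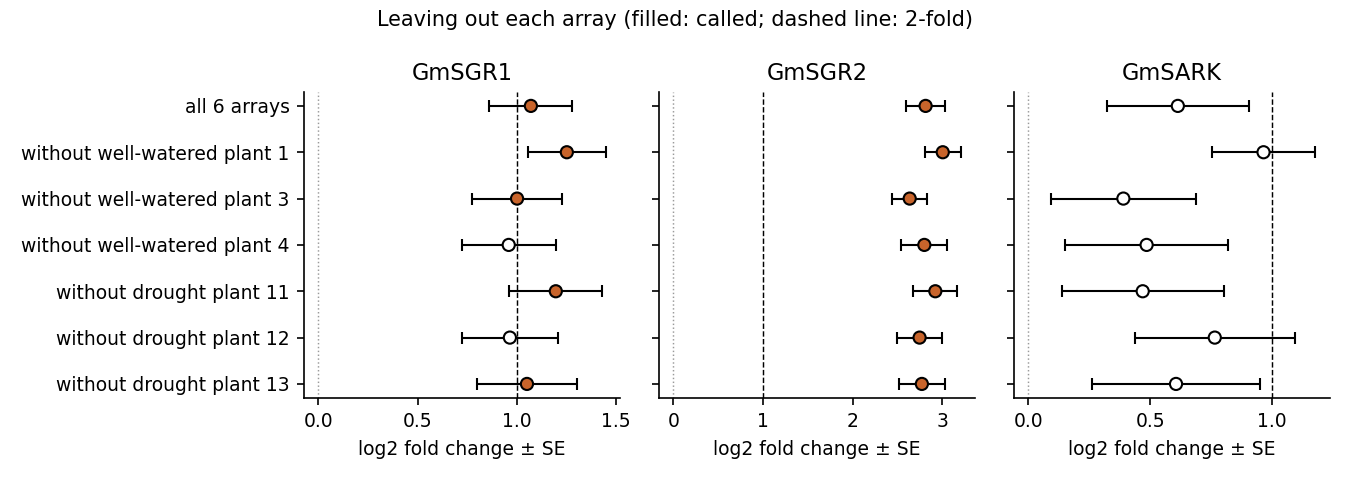
Log2 fold change ± SE of the limma fit (horizontal axis, a different range in each panel) of the 3 genes with all 6 arrays and without each array in turn (rows). Filled points were called and the dashed line marks a 2-fold change, around which GmSGR1 moves between 0.96 and 1.25.

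The genes were compared with each other within each array, in 3 pairs. The difference GmSGR2 minus GmSGR1 was -0.88, -1.12 and -0.71 in well-watered plants 1, 3 and 4, and 0.88, 0.77 and 0.89 in drought-stressed plants 11, 12 and 13. The 3 drought values of this difference lay close together and far above the well-watered ones. The measured drought change of GmSGR2 thus exceeded that of GmSGR1 by 1.75 ± 0.13 on the log2 scale (SE), with a 95% interval from 1.40 to 2.09. It exceeded that of GmSARK by 2.20 ± 0.32 (95% interval 1.31 to 3.09). These intervals cover the spread between arrays only, and whether the probe sets respond equally to RNA amount was not tested. For both pairs the exact two-sided permutation p was 0.1, the smallest it can give, and 0.15 after Benjamini-Hochberg adjustment over the 3 pairs.

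The changes of GmSGR1 and GmSARK differed by 0.46 ± 0.36 (SE). The 95% interval ran from -0.54 to 1.45, which leaves room for no difference and for one larger than the change of GmSGR1 itself. The exact two-sided permutation p was 0.3, also after adjustment. Over the 6 arrays Pearson's r was 0.96 between the stay-green genes, 0.70 between GmSGR1 and GmSARK, and 0.68 between GmSGR2 and GmSARK. These correlations describe the 6 arrays, which share their treatment groups, and carry no test.

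Other genes with a pattern like that of each gene were looked for by Pearson's r over the 6 arrays, also as a description. Over all probe sets the gene most like GmSGR1 had no name at hand (r = 0.999). Names or descriptions were at hand for 1732 genes, from chromosome 1 and the study's own gene lists. Among these the one most like GmSGR1 was GmCKX14 (Glyma12g01390, r = 0.994), a cytokinin oxidase, an enzyme that degrades the senescence-delaying hormone cytokinin. Its log2 values were -0.21, -0.78 and -0.90 in well-watered plants 1, 3 and 4, and 0.21, 1.04 and 0.75 in drought-stressed plants 11, 12 and 13. They rank the arrays within each group as GmSGR1 does. GmCKX14 was called higher, with a log2 fold change of 1.30 ± 0.25 (SE) and an adjusted p of 0.00487. The cytokinin oxidase list holds 7 genes, of which 1 was called higher, 3 lower and 3 not, and its median log2 fold change was -1.24. These are the genes that the study set against earlier PCR measurements to check its array. They are therefore no unbiased sample of the family. Of all probe sets 4.98% were called higher and 4.63% lower. The genes called lower were GmCKX13 at -3.31, GmCKX17 at -1.48 and GmCKX12 at -1.24. GmCKX02 was at -1.89 and was not called (adjusted p = 0.0699). Its change was -0.91 without well-watered plant 1, which was at 3.33, and -2.46 without well-watered plant 4, where it was called (adjusted p = 0.0314). GmCKX02 was also called with quantile normalization (-1.79, adjusted p = 0.0466), and in no other alternative fit.

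The gene most like GmSGR2 over all probe sets was Glyma08g28440 (r = 0.999), which has no name at hand and rose by 1.39 ± 0.16 (SE) on the log2 scale (adjusted p = 0.000267). Among described genes it was Glyma01g05320 (r = 0.998), which matches the cyclophilin-type isomerase AT1G26940 of Arabidopsis and changed by only 0.46 (adjusted p = 0.0642). Such matches were frequent, since 3018 probe sets (4.56%) reached an r of 0.95 with GmSGR2 and 1009 (1.53%) with GmSGR1. They were rare for GmSARK, with 76 probe sets (0.115%). The described gene most like GmSARK was Glyma01g40450 (r = 0.967), which matches the homeodomain-leucine zipper gene HAT22. It too had well-watered plant 1 at 0.07, far above plants 3 and 4 at -0.55 and -0.48, and its change of 0.38 was not called (adjusted p = 0.239).

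The rises of the stay-green genes were set against the 10 array genes on each side of each gene in identifier order. Among the 20 neighbours of GmSGR1 none was called higher and 2 were called lower. Their median log2 fold change was -0.07, in a range from -1.64 to 0.40. The lowest was Glyma11g02950, 3 places before GmSGR1, which has no name at hand. Among the 20 neighbours of GmSGR2 none was called higher and 5 were called lower, and the median was -0.35 in a range from -1.20 to 0.74. No neighbour within 10 places rose as much as the stay-green gene beside it. Few probe sets did so anywhere, since 4.54% of all rose more than GmSGR1 and 0.459% more than GmSGR2. The counts of called neighbours stand beside the 4.98% of all probe sets called higher and the 4.63% called lower.

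Of the neighbours of GmSGR2 called lower, 2 had a description. Glyma01g42430, which matches the phospholipase D gene PLDBETA2, an enzyme that cleaves membrane lipids, fell by 1.05 on the log2 scale (adjusted p = 0.00209). Glyma01g42300, which matches AT4G11990, fell by 1.02 (adjusted p = 0.00408). Both were near the 2-fold line and missed it when single arrays were left out, the first at -0.95 without well-watered plant 1 and -0.98 without drought-stressed plant 12, the second at -0.99, -0.97 and -0.90 without well-watered plant 4, drought-stressed plant 11 and drought-stressed plant 12. The gene directly after GmSGR2, Glyma01g42400, passed the adjusted p (0.0336) with a change of 0.74 and was not called.

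The neighbours of GmSARK were counted in the same way. Of the 20, 1 was called higher, 1 lower and 18 not, beside 4.98% of all probe sets called higher and 4.63% lower. Their median was 0.15, in a range from -1.23 to 1.60. The one called higher was Glyma13g34090, directly before GmSARK in identifier order, with a log2 fold change of 1.60 ± 0.18 (SE) and an adjusted p of 0.000231. It has no name at hand. In all, 4 of the 20 neighbours had a more positive log2 fold change than GmSARK, as had 10.3% of all probe sets.

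**Figure D4:**
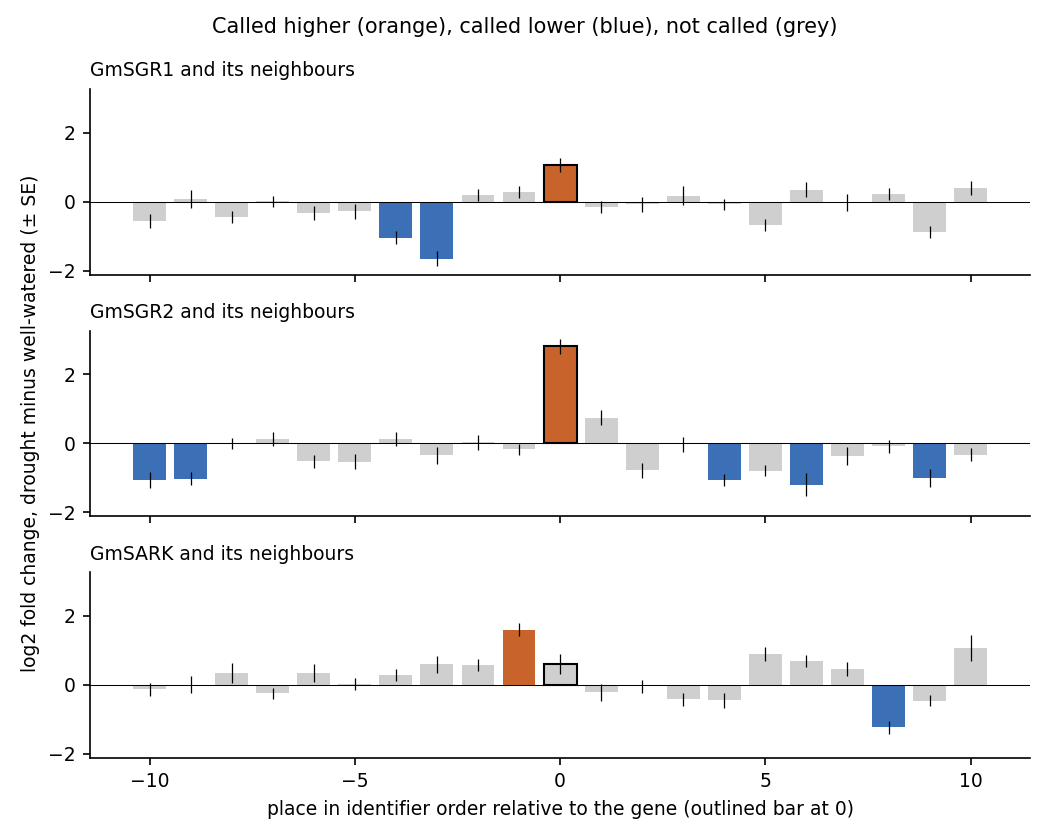
Log2 fold change, drought minus well-watered, ± SE of the limma fit (vertical axis) of GmSGR1, GmSGR2 and GmSARK (outlined bars at 0) and of the 10 array genes on each side in identifier order (horizontal axis). Orange bars were called higher, blue bars lower and grey bars not called, and the stay-green genes are the only orange bars in their panels, while the orange bar beside GmSARK is the gene directly before it at 1.60.

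Genes of related roles were counted in lists that rest on the gene descriptions at hand, which cover chromosome 1 and the study's hormone lists only. Over all probe sets the median log2 fold change was 0.02. Genes described by chlorophyll synthesis, photosystem II or other thylakoid functions, most of which neither make nor bind the pigment, had a median of -0.62. Of these 9 genes none was called higher and 1 was called lower, and 8 were not called, of which 4 passed the adjusted p with a change under 2-fold, each with drought lower. Over all probe sets 4.98% were called higher and 4.63% lower, and a further 3518 of 66184 passed the adjusted p with drought lower by less than 2-fold. The gene called lower was Glyma01g44850 of the ferredoxin family at -1.30 (adjusted p = 0.000802). PSBO2 of the oxygen-evolving complex was at -0.95 (adjusted p = 0.00254), and called at -1.01 without drought-stressed plant 12, and the antenna gene LHCB4.2 at -0.81 (adjusted p = 0.00647). CHLD, a subunit of the enzyme that inserts magnesium into the chlorophyll precursor, was at -0.62 (adjusted p = 0.025).

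Of 7 other genes described by senescence 2 were called lower and none higher, beside 4.63% and 4.98% of all probe sets, and their median was -0.64. Glyma01g44730, which matches a senescence-associated protein (AT3G22550), fell by 2.61 ± 0.19 (SE) on the log2 scale (adjusted p = 1.83e-05). Glyma13g33890, which matches SRG1, an oxygenase named for senescence in Arabidopsis, fell by 2.12 ± 0.18 (SE) on the log2 scale (adjusted p = 4.05e-05). The largest positive change in the list was 0.40, in another SRG1 match, which was not called (adjusted p = 0.211). Most of the 7 genes were such SRG1 matches, including the one at the median, so that the median largely describes this family. SRG1 matches taken from the hormone lists had been picked by the study for their change under drought in leaves of plants at the earlier V6 stage. They are therefore no unbiased sample of the family.

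Leucine-rich repeat kinases, the wider family of GmSARK, were counted on chromosome 1. Of 20 such genes 2 were called higher, 3 lower and 15 not, with a median of 0.05, beside 4.98% of all probe sets called higher and 4.63% lower. The log2 fold change of Glyma01g01090 was 1.60 ± 0.36 (SE, adjusted p = 0.0108), while its next listed relative, Glyma01g01080, was at -1.30 ± 0.18 (SE, adjusted p = 0.000685). Both match the Arabidopsis kinase AT5G25930. With the methods' t-test neither Glyma01g01090 (adjusted p = 0.147) nor Glyma01g00790 (adjusted p = 0.14) was called. Glyma01g00790 was also called higher, at 1.13, a call lost without well-watered plant 4 (0.90), drought-stressed plant 12 (0.98) or drought-stressed plant 13 (1.08). Called lower were Glyma01g42100 at -1.50 and Glyma01g35390 at -1.32. The change of GmSARK, 0.61, lies inside the range of these kinases.

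**Figure D5:**
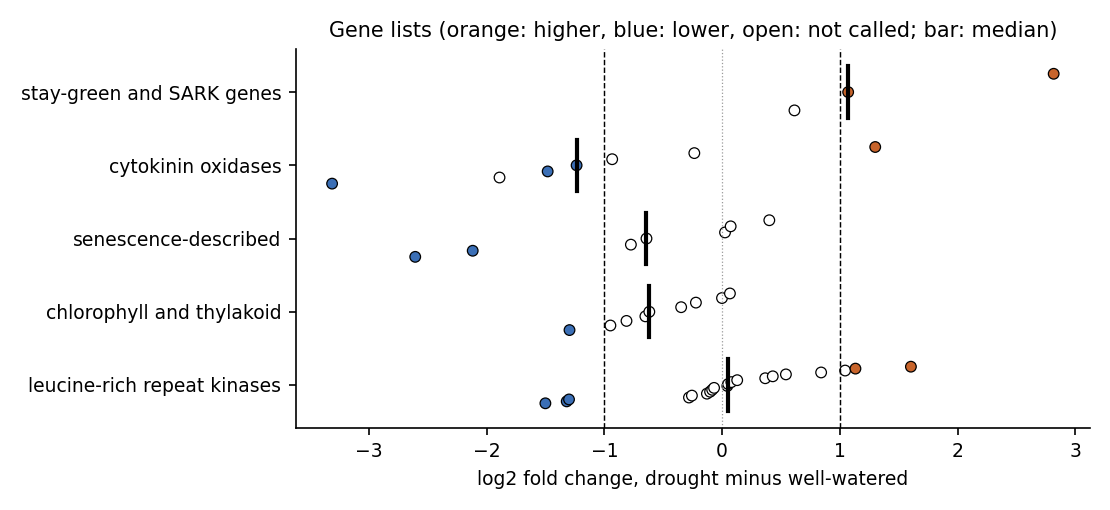
Log2 fold change, drought minus well-watered (horizontal axis), of the 3 genes and of the members of 4 gene lists (rows), with 1 point per gene and a bar at the list's median. Orange points were called higher, blue points lower and open points not called. GmSGR1, GmSGR2 and GmSARK all lie above 0, with GmSARK not called. The other genes described by senescence, most of them SRG1 matches, have a median of -0.64, and the chlorophyll and thylakoid genes one of -0.62.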

How the data were processed

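Total RNA of trifoliate leaves was amplified and converted to sense-strand cDNA, which was labelled and hybridised to 6 arrays. The authors ran RMA in Affymetrix Expression Console, with its normalization left off, and then aligned the arrays at their 75th percentile in GeneSpring. The deposited log2 values are in addition centred, probe set by probe set, on the median of the 6 arrays, as the values show. No filter on dim probe sets was therefore possible, and signal over background is unknown. The authors also deposited a signed fold score and p-values of their own comparison. These were not used, and only the gene identifiers of that table were.

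Values were used as deposited and fitted over all 66184 probe sets by lmFit and eBayes of limma 3.58.1 (R 4.3.3), with no term but treatment. The script was tested on simulated data. Differences between genes were taken within arrays, with intervals from 4 residual degrees of freedom and exact permutation tests over samples. The alternatives were array medians subtracted, quantile normalization, array weights, robust eBayes, the methods' t-test, no fold criterion and leaving out each array.

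The genes, lists and tests were chosen with earlier results of these data known. The genes named besides GmSGR1, GmSGR2 and GmSARK are those with the highest r to each, up to 3 called members of each list in each direction, described neighbours of GmSGR2 that were called, and a few identifiers without a name. PSBO2, LHCB4.2, CHLD, GmCKX02, Glyma01g42400 and the third SRG1 match were added after their values were seen. None of the array's Glyma1 identifiers matched the 59048 RefSeq genes, so names are those of the study and RefSeq was searched by symbol. Of 3138 array genes of chromosome 1, 1833 had an entry among the study's descriptions, some of them without a matched gene or symbol. Only genes with a matched gene or symbol count among the 1732 with a name or description. No coordinates are given, since the RefSeq assembly is not that of the array.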

Additional observations from a re-analysis of the deposited data

How the results depend on the processing

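Over all probe sets, the methods' t-test called 2319 higher and 2041 lower, and without the fold criterion 6589 were higher and 6583 lower. Leaving out each array in turn gave 3050 to 3523 higher and 2861 to 3237 lower. GmSGR2 kept its call in 12 of 12 alternatives, and GmSARK was called in none of its 12. GmSGR1 kept its call in 9 of 12. It lost it with the methods' t-test, at an unchanged 1.07 on the log2 scale (adjusted p = 0.0626), and without well-watered plant 4 or drought-stressed plant 12. Leaving out each array gave log2 fold changes of 0.96 to 1.25 for GmSGR1, 2.64 to 3.01 for GmSGR2 and 0.39 to 0.97 for GmSARK. The differences between genes ranged from 1.64 to 1.84 (GmSGR2 minus GmSGR1), 1.98 to 2.45 (GmSGR2 minus GmSARK) and 0.20 to 0.73 (GmSGR1 minus GmSARK, 0.20 without drought-stressed plant 12, 0.29 without well-watered plant 1 and 0.73 without drought-stressed plant 11). With 20 neighbours on each side, 1 neighbour of GmSGR1, 2 of GmSGR2 and 1 of GmSARK were called higher, out of 40 each. Called lower were 3 neighbours of GmSGR1, 7 of GmSGR2 and 5 of GmSARK. Over all probe sets 4.98% were called higher and 4.63% lower. In this wider window 1 neighbour of GmSGR1 rose more than GmSGR1 itself, while no neighbour of GmSGR2 rose more than GmSGR2. Of the 25 other named genes, 15 kept their side of the criteria in all 12 alternatives and none changed direction, and GmCKX14 (adjusted p = 0.0857), Glyma01g01090 and Glyma01g00790 lost their calls with the methods' t-test. No paired analysis was possible because the groups share no plant number. The small number of arrays limits every value, and dim probe sets could not be recognised.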
